A study of Chlorocebus sabaeus with 4 samples.

Results

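The corpus luteum of vervet monkeys (Chlorocebus sabaeus) was examined for 9 genes of hedgehog signalling. They are the ligands IHH and DHH, the receptor PTCH1, the co-receptor BOC, the transducer SMO, the decoy receptor HHIP and the transcription factors GLI1, GLI2 and GLI3. They were found by exact match to the gene symbol of the array's annotation, which gave 23 of 54613 probe sets and 9 of 19775 genes. The group was chosen by measured values: it was proposed after the change of IHH and of relatives of it between the samples of the ad libitum animal had been seen. All values of that contrast are therefore a description, and no test is given for it.

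Both animals were adult females of 16 years, and the labels name no transgene, drug or surgery. The ad libitum diet went to monkey 1030 and calorie restriction to monkey 1031, so diet and animal cannot be told apart. Each animal served as its own control and gave 2 samples of frozen tissue, numbered 1 and 2, with 1 array each. The labels do not say which was taken first, so sample 2 is set against sample 1 throughout and no order in time is implied. The values are log2 signals from arrays of human probe sets, and a mismatch to the vervet sequence can lower a probe set's signal. All 9 symbols are in the RefSeq vervet annotation (mChlSab1.0.hap1).

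Hedgehog ligands are secreted proteins that bind PTCH1 and so release SMO from its inhibition, after which GLI factors turn on target genes. GLI1, PTCH1 and HHIP are themselves transcribed when the pathway is active, in most tissues studied. In growing follicles granulosa cells make IHH and DHH, and the surrounding theca and stromal cells carry the receptors and respond. The oocyte factor GDF9 promotes the making of these ligands in mouse granulosa cells. The corpus luteum forms from granulosa and theca cells after ovulation.

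Median log2 signal was alike on the arrays, between 3.96 and 4.00. Sample 2 of the ad libitum animal stood apart. With each gene taken at its brightest probe set, and with genes under the median of all (log2 5.26) left out, it differed by 2-fold or more from the other samples in 912 to 1031 of 9888 genes. The other 3 samples differed from each other in 122 to 333. Steroid-making luteal cells are the defining cells of the tissue. Their cholesterol carrier STAR had a log2 signal of 12.49 (sample 1) and 9.002 (sample 2) under the ad libitum diet and of 10.24 and 11.27 under calorie restriction. STAR was lowest in the ad libitum sample 2, where other luteal markers were low too: HSD3B2 read 6.06 there against 7.11 or more elsewhere, HSD11B1 read 5.68 against 6.85 or more, and PTGFR read 2.54 against 5.10 or more. The luteal label was thus least borne out by that sample.

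In the ad libitum animal the ligand IHH, the receptor PTCH1, the decoy HHIP, the factor GLI1 and the co-receptor BOC were all higher in sample 2 by 2-fold or more. At their brightest probe sets IHH was 6.86-fold higher, HHIP 5.07-fold, PTCH1 4.67-fold, GLI1 2.97-fold and BOC 2.23-fold. DHH, GLI2, GLI3 and SMO were under 2-fold. In the calorie restriction animal none of the 9 genes was 2-fold apart, and PTCH1 and HHIP were nearest to it, in the opposite direction. Each animal's change rests on 1 array a sample, so 2-fold is a rule of size and no test was possible. In whole tissue, more cells of a type and more RNA in each cell cannot be told apart.

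**Figure D1:**
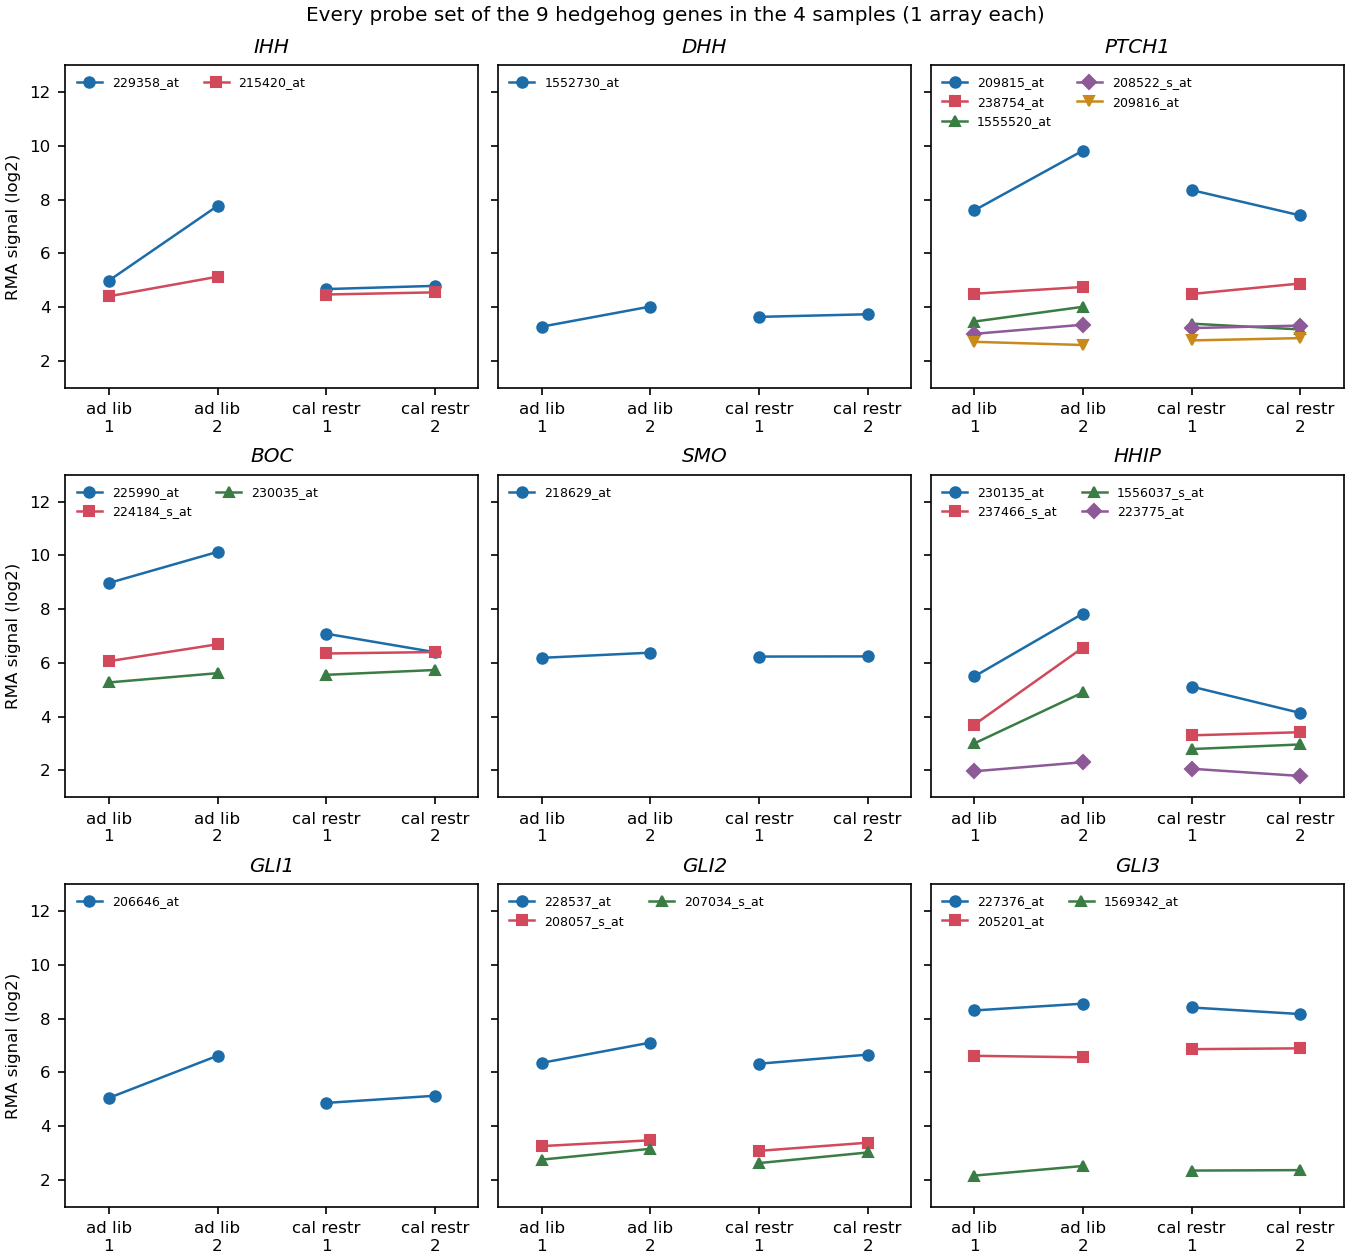
RMA signal (log2) of each of the 23 probe sets, 1 panel a gene, in both samples of each animal; each point is 1 array, and lines join an animal's samples. IHH reaches 7.77 in the ad libitum sample 2 and stays between 4.67 and 4.99 elsewhere, while SMO lies between 6.19 and 6.38 in all 4.

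The ligands came first. IHH, or Indian hedgehog, had a log2 signal of 4.99 in sample 1 and 7.77 in sample 2 of the ad libitum animal, and of 4.67 and 4.79 in the calorie restriction animal (probe set 229358_at). The ad libitum sample 2 was high alone, and the other 3 samples lay within 0.32 of each other. The change of 2.78 on the log2 scale was the 5th largest increase among the 9888 genes. The other IHH probe set, 215420_at, read 4.40 and 5.13 in the ad libitum animal and 4.47 and 4.55 in the other. It ranked the same sample highest, but its change was 0.73, or 1.66-fold.

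DHH, or desert hedgehog, gave a dim signal at its single probe set, under the median of all probe sets. It read 3.27, then 4.02 in the ad libitum animal and 3.64, then 3.73 in the other. The change was 0.75 in the first animal and 0.10 in the second, and the ad libitum samples lay on both sides of the others. The third ligand of the family, SHH, was not among the 9. It lay between 3.73 and 4.05 in the 4 samples, also dim, and was lowest in the ad libitum sample 2.

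Among the receptors PTCH1, which binds the ligands and holds SMO inactive, was bright at 209815_at. It read 7.60 and 9.82 in the ad libitum animal and 8.36 and 7.41 in the calorie restriction animal. Sample 2 was thus high in the first animal and low in the second, with changes of 2.22 and -0.94. The first was the 16th largest increase of the 9888 genes. The PTCH1 signal in the ad libitum sample 1 lay between the calorie restriction samples. PTCH1 has 4 more probe sets, all much dimmer, with means between 2.73 and 4.65. Their changes in the ad libitum animal ran from -0.12 to 0.55, so the size of the PTCH1 change rests on a single probe set. With the mean of the 5 probe sets PTCH1 changed by 0.65 in the first animal and by -0.12 in the second.

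BOC, a membrane protein that binds ligand together with PTCH1, gave disagreeing probe sets. At 225990_at it read 8.97 and 10.13 in the ad libitum animal and 7.09 and 6.40 in the calorie restriction animal. Both ad libitum samples were far above both of the others. At 224184_s_at the same samples read 6.06, 6.69, 6.35 and 6.40, and at 230035_at they read 5.27, 5.62, 5.56 and 5.74, so there the animals overlapped. The change within the ad libitum animal was positive at all 3 probe sets, at 1.16, 0.63 and 0.34. Within the calorie restriction animal it was -0.69, 0.05 and 0.18. The first probe set alone separated the animals, and which of the 3 follows BOC RNA best in vervet was not tested.

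SMO, the membrane protein that passes the signal into the cell, hardly varied. Its single probe set read 6.19 and 6.38 in the ad libitum animal and 6.23 and 6.24 in the calorie restriction animal. The changes of 0.19 in the first and 0.01 in the second were the smallest pair among the 9 genes.

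HHIP, a surface protein that takes up ligand without passing on a signal, had 4 probe sets. The brightest, 230135_at, read 5.50 and 7.84 in the ad libitum animal and 5.12 and 4.14 in the calorie restriction animal. At 237466_s_at the values were 3.70, 6.57, 3.30 and 3.42, and at 1556037_s_at they were 3.003, 4.90, 2.79 and 2.97. All 3 put the ad libitum sample 2 far above the rest, with changes of 2.34, 2.87 and 1.90. The first was the 14th largest increase of the 9888 genes. The fourth, 223775_at, was among the dimmest on the array, between 1.79 and 2.31, and changed by 0.34 in the same direction. In the calorie restriction animal the brightest changed by -0.98, the next ones by 0.12 and 0.17 and the dimmest by -0.27. The next ones lay between 2.79 and 3.42 in that animal, under the median of all probe sets (3.99). Whether a decrease could show at that level was not tested. The size of the decrease there thus rests on the brightest probe set alone.

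The GLI factors differed from each other. GLI1, an activator, had 1 probe set, which read 5.05 and 6.62 in the ad libitum animal and 4.86 and 5.13 in the calorie restriction animal. Its change of 1.57 was the 63rd largest increase of the 9888 genes, and the other 3 samples lay close together. GLI2, the main activator early in the response, read 6.35 and 7.11 in the ad libitum animal and 6.32 and 6.66 in the calorie restriction animal at its brightest probe set. It was higher in sample 2 in both animals, by 0.75 and 0.34, and so were its other probe sets, by 0.22 and 0.40 in the first and 0.30 and 0.39 in the second.

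GLI3, which acts mainly as a repressor when no ligand is bound, varied little. At 227376_at it read 8.30 and 8.56 in the ad libitum animal and 8.41 and 8.17 in the calorie restriction animal. At 205201_at it read 6.62 and 6.56, then 6.86 and 6.89, so its changes there were -0.06 and 0.03. The third probe set was dim, with a mean of 2.35.

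Counted over genes, 5 of the 9 were 2-fold higher in the ad libitum sample 2 and 0 were lower, where 2.67% of the 9888 genes were higher and 6.58% lower. Since this contrast led to the choice of the genes, nothing is read from the count. The median change of the 9 genes was 1.16, beside -0.01 over the 9888 genes. One of the 9, DHH, was below the level filter that the 9888 genes passed. Counted over probe sets, 7 of 23 were higher and 0 lower by 2-fold, where 1.27% and 2.64% of all 54613 were. The same 7 were at least 2-fold above each of the other 3 samples, as were 0.718% of all probe sets. The sign was positive at 21 of the 23, all but PTCH1 209816_at and GLI3 205201_at.

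In the calorie restriction animal, 0 of 9 genes and 0 of 23 probe sets were 2-fold apart in either direction. Of the 9888 genes 0.496% were higher and 0.738% lower, and of all probe sets 0.181% and 0.3%. HHIP (-0.98) and PTCH1 (-0.94) ranked 81st and 95th from the lowest of the 9888 changes, and BOC (-0.69) ranked 262nd. IHH changed by 0.12 and GLI1 by 0.27. PTCH1 and HHIP thus had negative changes where IHH and GLI1 had small positive ones, and no replicate shows whether changes of this size exceed the spread between arrays. The median change of the 9 genes was 0.01, beside -0.03 over the 9888.

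**Figure D2:**
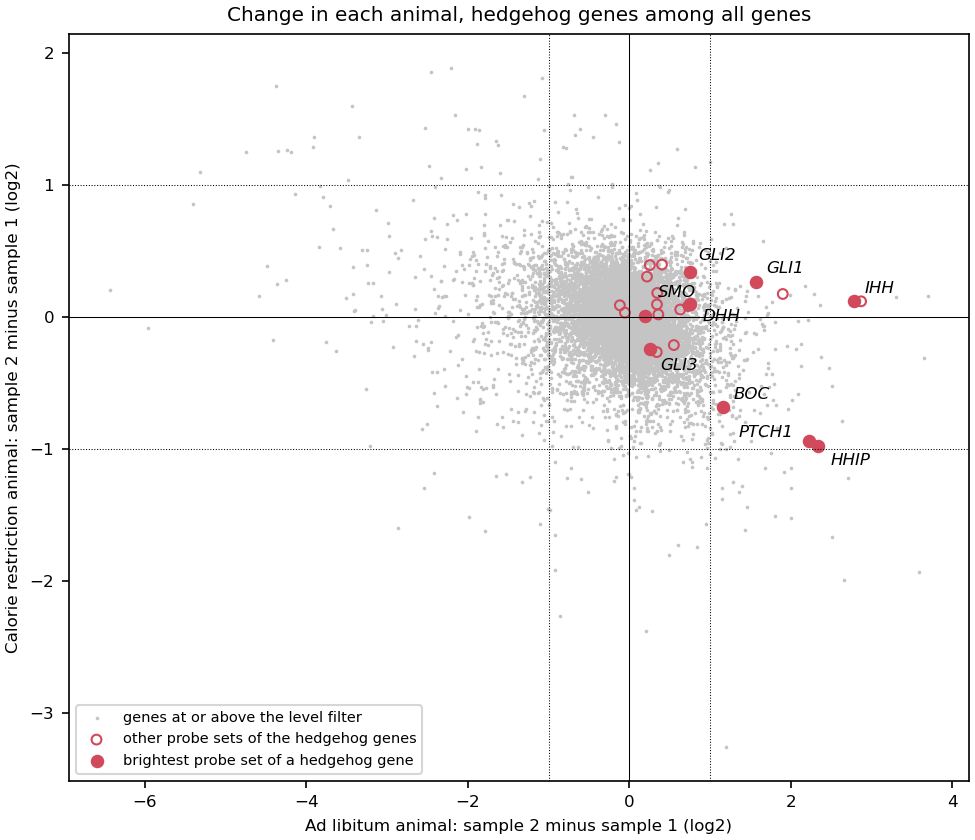
Log2 change from sample 1 to sample 2, for the ad libitum animal on the horizontal axis and for the calorie restriction animal on the vertical axis, with 1 grey point for each of the 9888 genes, filled red points for the brightest probe set of each hedgehog gene, open red points for their other probe sets and dotted lines at 2-fold. IHH, HHIP, PTCH1, GLI1 and BOC lie right of the 2-fold line, and no hedgehog gene lies beyond it on the vertical axis.

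Over both samples of each animal, the difference between animals was fitted with limma over all 54613 probe sets. No hedgehog probe set passed a Benjamini-Hochberg adjusted p of 0.05, and neither did any of the 54613, or 0% of them. At an unadjusted p of 0.05, 2 of 23 and 2884 of 54613 passed in the limma fit. The p-values rest on how far samples of the same animal lie apart, with 2 samples each, and say nothing of how animals vary. The fit also includes the ad libitum sample 2, whose values led to the choice of the genes. Counts and p-values of hedgehog probe sets therefore in part restate that choice.

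BOC had the widest separation. At 225990_at its mean was 9.55 in the first animal and 6.74 in the second, a difference of -2.81 ± 0.44 (SE, n = 2 and 2) or 7.01-fold. The adjusted p from limma was 0.52 (unadjusted 0.00062). The ad libitum sample 1, which did not stand apart over all genes, was itself above the calorie restriction samples by 1.89 and 2.57. Without the ad libitum sample 2 the difference was -2.23 ± 0.32 with an adjusted p of 0.24 from limma. That fit leaves 1 ad libitum sample, so its error comes from the calorie restriction samples alone and the lone sample is assumed to vary as they do; the same holds for the values without this sample below. At the other BOC probe sets the differences were -0.001 ± 0.26 and 0.20 ± 0.21.

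HHIP was lower in the calorie restriction animal by -2.04 ± 0.75 at 230135_at (adjusted p 0.92 from limma, unadjusted 0.034), with ad libitum samples at 5.50 and 7.84 and the others at 5.12 and 4.14. Without the ad libitum sample 2 this came to -0.87 ± 0.41. At the next HHIP probe sets it went from -1.77 ± 0.83 to -0.34 ± 0.16 and from -1.07 ± 0.56 to -0.12 ± 0.16. IHH went from -1.65 ± 0.81 to -0.26 ± 0.18, GLI1 from -0.84 ± 0.49 to -0.05 ± 0.20 and PTCH1 from -0.83 ± 0.72 to 0.28 ± 0.40. Each of these differences was smaller in size without that single sample, and that of PTCH1 also turned its sign.

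With the ad libitum sample 1 left out instead, 6 hedgehog probe sets passed the adjusted p of 0.05 in limma, along with 663 of all 54613. They belong to IHH, HHIP (3 probe sets), BOC and GLI1. That fit sets the lone ad libitum sample 2, in which IHH and its relatives were seen to be high before the genes were chosen, against the calorie restriction samples. Its calls restate the values that led to the choice and are no support for them.

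Where the animals did not overlap, 6 of 23 hedgehog probe sets were higher in the ad libitum animal, and 2 were higher under calorie restriction. Over all probe sets 16.3% and 18.4% were so. The ad libitum sample 2 enters this count too, so it is not independent of the choice of the genes. The 6 were those of IHH (229358_at), BOC (225990_at), HHIP (the brightest 3) and PTCH1 (1555520_at, dim). The 2 were GLI3 (205201_at, by 0.29 ± 0.19) and PTCH1 (209816_at, dim).

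**Figure D3:**
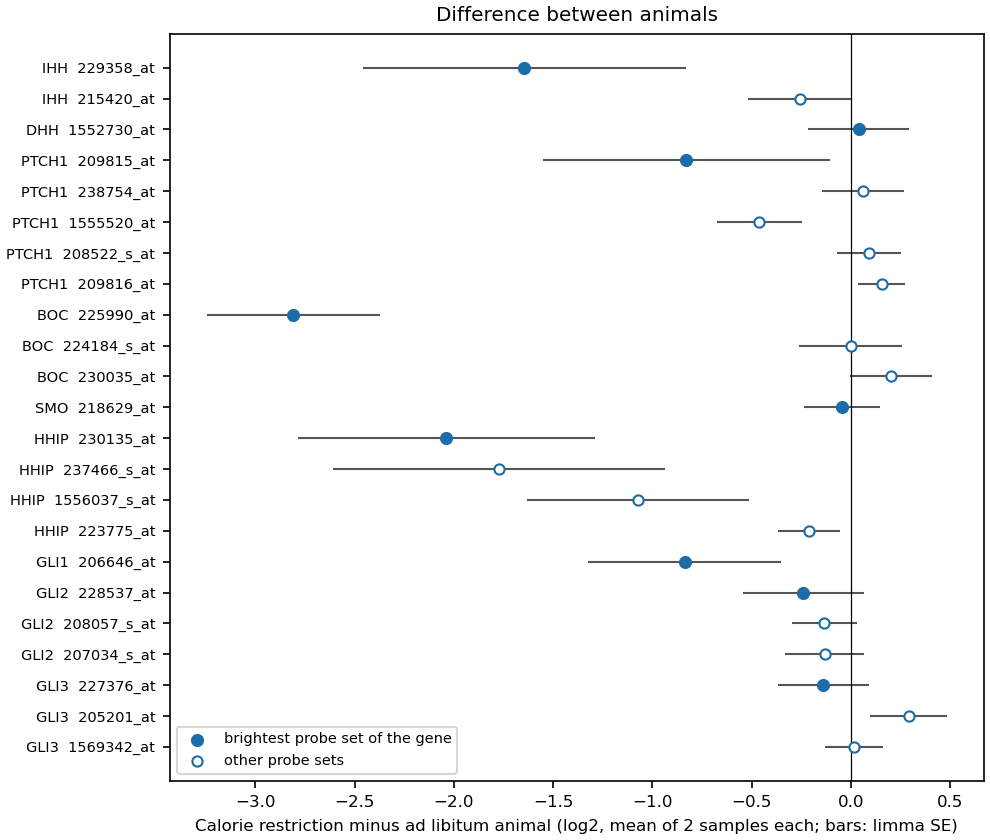
Difference between the animals' means (calorie restriction minus ad libitum, log2, horizontal axis) for each hedgehog probe set, with the limma SE as bars and filled points for the brightest probe set of a gene. BOC 225990_at lies at -2.81, while the other BOC probe sets lie at -0.001 and 0.20.

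Other genes of the pathway were taken from lists of known function, 58 of which were measured. In the ad libitum animal 6 were 2-fold higher and 5 lower in sample 2, and in the calorie restriction animal 0 and 1. Of these 58, 37 passed the level filter. Over all 19775 genes at their brightest probe set, with no level filter, 1.96% were higher and 3.83% lower in the ad libitum animal, and 0.349% and 0.45% in the calorie restriction animal. The median changes of the 58 were 0.04 and -0.12. These lists were written with the earlier results on IHH known.

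Of 13 genes of ligand processing and reception, 3 were higher and 1 lower in the ad libitum animal. SCUBE1 and SCUBE2 encode secreted proteins of a family that helps to release ligand. SCUBE1 read 7.07 and 8.16 in this animal and 7.80 and 7.06 in the other, and SCUBE2, below the level filter, read 4.43 and 5.61, then 4.38 and 3.92. Both were high in sample 2 of the first animal, by 1.09 and 1.19, and lower in that of the second, by -0.74 and -0.45. With both its probe sets averaged SCUBE1 changed by 0.60 in the ad libitum animal. The heparan sulphate proteoglycan GPC5, also dim, read 2.89 and 4.95, then 5.26 and 4.94, so that the ad libitum sample 1 was the low one. DISP1, which releases ligand from the cells that make it, changed by -1.03 and was dim. It read 5.68 and 4.65, then 4.62 and 4.50, so that the ad libitum sample 1 was the high one. The co-receptors GAS1 (-0.20 and 0.41) and CDON (0.44 and 0.51) were under 2-fold in both animals.

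Of 24 genes of signal transduction and the cilium, none was 2-fold apart in either animal. Their medians were 0.04 and -0.14. SUFU, which binds and restrains GLI proteins, changed by 0.10 and -0.37, and KIF7, a ciliary kinesin of the pathway, by 0.38 and -0.10. IFT172, a ciliary transport protein, had the largest change of this list in each animal, 0.85 and -0.67.

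Of 21 genes known to respond to hedgehog in some tissues, 3 were 2-fold higher and 4 lower in the ad libitum animal. MYCN, a transcription factor, read 7.08 and 8.88 there and 7.31 and 7.27 in the other animal. SFRP1, a secreted Wnt inhibitor, read 8.53 and 9.77, then 7.43 and 7.29. BCL2, which blocks apoptosis, changed by 1.04. With all probe sets of a gene averaged MYCN changed by 0.21, BCL2 by 0.54 and SFRP1 by 0.81, each under 2-fold.

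The cell cycle genes CCND1 (-2.46) and FOXM1 (-1.03), the matrix protein SPP1 (-1.50) and SNAI1 (-1.61) were lower. By averages of all probe sets SPP1 changed by -0.76, under 2-fold, and CCND1 by -2.11, while the others have 1 probe set. SNAI1 was also the single gene lower in the calorie restriction animal (-1.58). CCND1 read 8.58 and 6.13 in the ad libitum animal and 8.22 and 8.53 in the other. FOXM1 read 6.19 and 5.16, then 5.25 and 5.45, so the ad libitum sample 1 was the high one. SPP1 was also highest in that sample, with 7.73 and 6.23, then 6.34 and 7.07. SNAI1 read 5.92 and 4.31, then 6.03 and 4.45, and so was low in sample 2 of both animals. Of the lower genes CCND1 alone was thus set clearly apart by the ad libitum sample 2. Between this animal's samples the response genes changed both ways. The forkhead genes FOXF1, FOXF2 and FOXL1, targets in gut mesenchyme, were dim and under 2-fold.

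**Figure D4:**
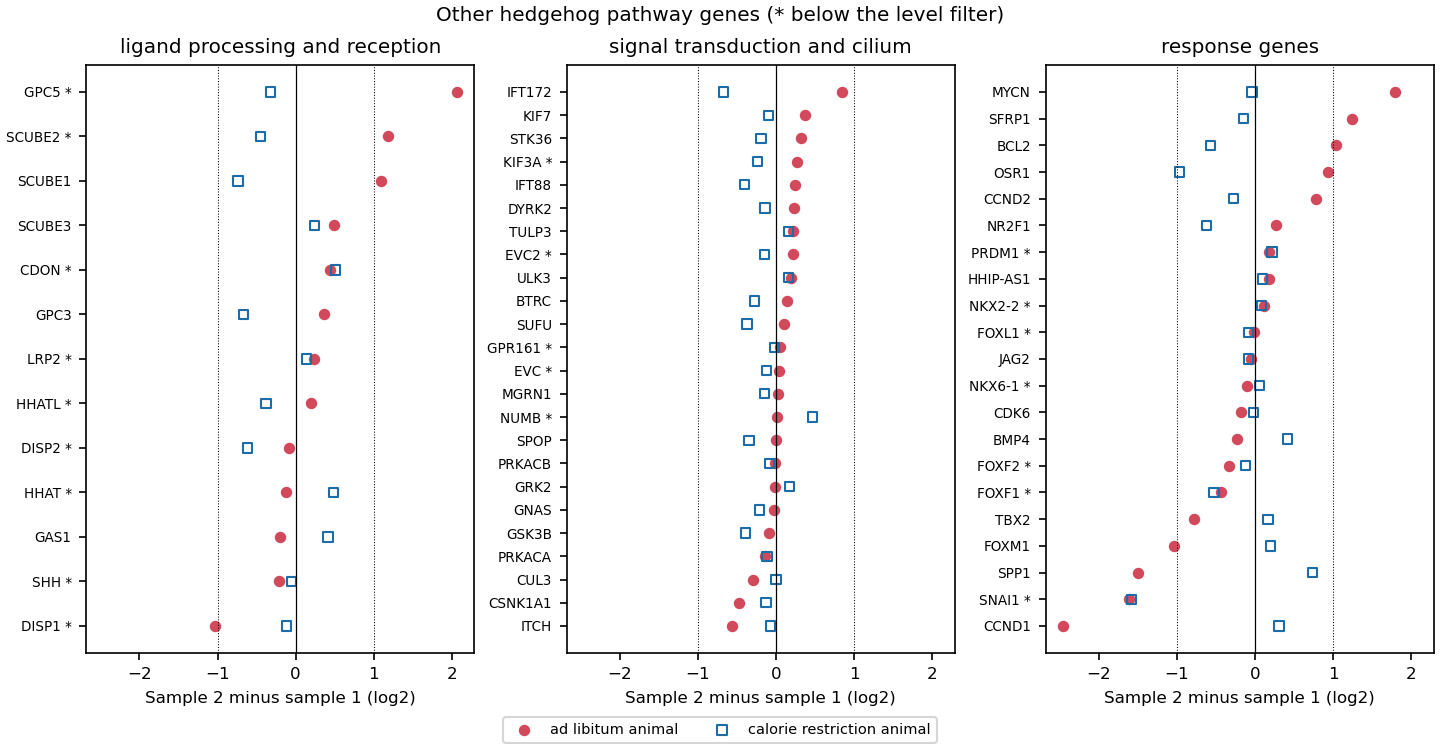
Log2 change from sample 1 to sample 2 (horizontal axis) of the other hedgehog pathway genes in 3 lists, with filled circles for the ad libitum and open squares for the calorie restriction animal, dotted lines at 2-fold and stars at genes below the level filter. In the middle panel all 24 genes lie within 2-fold in both animals.

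Markers of ovarian cell types, among them granulosa and theca cells that make or answer hedgehog ligand in follicles, also differed between samples. The counts below are over all measured markers, of which some lie under the level filter, beside the same 1.96% and 3.83% of all genes for the ad libitum animal and 0.349% and 0.45% for the other. Oocyte markers, of which 4 of 13 were 2-fold higher and 0 lower in the ad libitum sample 2, had a summed linear signal of 332 and 1030 in that animal and of 335 and 306 in the other. ZP4, an egg coat protein, read 4.65 and 8.30, then 4.44 and 4.13, and ZAR1, an oocyte factor, read 4.42 and 8.12, then 4.52 and 4.68. Both were high in the sample in which IHH was high. Only 3 of the 13 oocyte markers passed the level filter, ZP4, ZAR1 and GDF9. GDF9 changed by 0.59 and -0.31 and BMP15 was dim throughout.

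Of 12 granulosa markers 3 were higher and 6 lower in the ad libitum sample 2, with a summed signal of 17390 and 7606 in that animal and 14390 and 15940 in the other. The FSH receptor FSHR (1.25, dim), the activin antagonist FST (2.29) and INHBB (1.21) were higher, whereas aromatase, CYP19A1 (-5.96), and INHA (-5.32) were among the lower. With all its probe sets averaged CYP19A1 changed by -1.43, still past 2-fold. In the calorie restriction animal 2 granulosa markers were higher and 0 lower. FOXL2, a defining factor of granulosa cells, changed by -0.32 and 0.32. Of 11 luteal markers, which share INHA with the granulosa list and STAR and LHCGR with the theca list, 9 were lower there and 5 higher in the calorie restriction sample 2, with a summed signal of 30050 and 4330, then 11860 and 19820.

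Of 8 theca and interstitial markers 4 were higher and 3 lower in the ad libitum sample 2, and in that of the calorie restriction animal 1 was higher and 2 lower. By averages of all probe sets CYP17A1 (0.62) and TCF21 (0.575) of the higher ones came under 2-fold in the ad libitum animal. The summed signal was 12730 and 9052, then 6044 and 7090. It includes STAR and LHCGR, which are also luteal markers, so it does not follow theca cells alone. LHCGR read 11.42 and 9.32, then 10.90 and 11.37, and both genes moved in the direction of the sum in each animal. INSL3, a theca hormone, read 9.18 and 11.83 in the ad libitum animal and 9.51 and 7.52 in the other, and the androgen enzyme CYP17A1 read 9.57 and 10.76, then 8.89 and 5.63. Both had a positive change in the first animal and a negative one in the second, as did PTCH1 and HHIP at their brightest probe sets. The pair was the opposite in STAR (-3.49 and 1.03), LHCGR (-2.10 and 0.47) and CYB5A (-0.42 and 0.20) of the same list. HHIP 237466_s_at (2.87 and 0.12), HHIP 1556037_s_at (1.90 and 0.17), PTCH1 238754_at (0.25 and 0.39) and PTCH1 208522_s_at (0.34 and 0.09) were positive in both animals. PTCH1 209816_at had the opposite pair (-0.12 and 0.09). HHIP 223775_at (0.34 and -0.27) and PTCH1 1555520_at (0.55 and -0.22) had the signs of INSL3 and CYP17A1. HHIP 237466_s_at and HHIP 1556037_s_at were dim in the second animal, and whether a decrease could show there was not tested. Smooth muscle markers summed to 10580 and 12660, then 7124 and 9935, and those of fibroblasts to 30400 and 22680, then 24580 and 28320. The sums were 2855 and 1297, then 4466 and 3355 for endothelium, 2177 and 3334, then 3013 and 2900 for macrophages, and 371 and 426, then 319 and 325 for surface epithelium. No marker could be called absent, since the files hold no detection calls. The part of any of these cell types in the hedgehog values was not tested.

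Genes of most similar pattern were found by the root mean square difference between log2 profiles centred over the 4 samples, which is a description over few points. IHH was nearest to DHDH (0.15), CTSK, a lysosomal protease (0.22), and CYP27A1, a sterol hydroxylase (0.22). CTSK and CYP27A1 were also near HHIP (0.26 and 0.27), after MYRIP (0.23). PTCH1 was nearest to BCL11A, COL4A4 and LILRA4 (each 0.15), BOC to SFRP2 (0.23), ECRG4 (0.30) and MATN2 (0.32), and GLI1 to TRBC1, CAPG and CENPV (each 0.09). SFRP2 read 7.07 and 8.36 in the ad libitum animal and 5.78 and 4.90 in the other, the pattern of BOC at its brightest probe set. SMO and GLI3, which varied little, lay within 0.01 of their nearest genes, and GLI2 lay 0.02 from PRUNE2.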

How the data were processed

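The authors deposited log2 signals per probe set, for which the submitters' processing notes name RMA and Affymetrix Power Tools. RMA corrects background, quantile-normalises and summarises probes; the version is not given in the sources used here. Detection of single probes was not analysed, and the number of arrays limits the precision. The 62 control probe sets were left out. A gene was represented by its brightest probe set by the mean over the 4 samples, probe sets with several symbols were not named, and every probe set of the 9 genes was kept. Named genes were these, the listed pathway and marker genes at 2-fold in either animal or with a role described, and the 3 genes of nearest profile for each member past the level filter. The difference between animals was fitted with lmFit and eBayes of limma 3.58.1 in R 4.3.3, with a trend and Benjamini-Hochberg adjustment over all probe sets. The fit left 2 residual degrees of freedom. Its procedure was first run on simulated data with planted differences larger than those of the hedgehog genes. That run required only that estimates follow the planted differences, so it does not show how well smaller ones are called. Nothing in the labels says that an animal's samples come from separate cycles, so p-values measure only the spread between these samples, which may be technical. The genes, lists and tests were chosen with earlier results of these data known. Alternatives were 2 other normalisations, the mean of all probe sets, less specific probe sets left out, other fold thresholds and level filters, no trend, sample number as a block, and each sample left out. Sequences were not used here.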

Additional observations from a re-analysis of the deposited data

Results flagged for a closer look

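In all, 3 hedgehog probe sets moved by 1.5-fold or more in opposite directions in the 2 animals. The ad libitum change minus the calorie restriction change was 3.17 for PTCH1 (209815_at, 2.22 and -0.94), 3.32 for HHIP (230135_at, 2.34 and -0.98) and 1.84 for BOC (225990_at, 1.16 and -0.69). The difference was not tested, since each change has 1 array a sample, and its direction depends on sample numbers whose order in time is not given. Other probe sets of each gene did not show the opposed pair at this size, and those of HHIP were dim in the calorie restriction animal.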

How the results depend on the processing

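Of 72 recomputed single changes of the 9 genes, 66 kept their side of 2-fold and moved by under 0.50, 6 crossed 2-fold or moved further, and 0 changed direction among those past 2-fold. All 6 came from averaging a gene's probe sets. Many of the 66 could not move. No brightest probe set of the 9 genes was a less specific one, so leaving those out changed nothing. Averaging could not change DHH, SMO or GLI1, which have 1 probe set each. Cyclic loess and repeated quantile normalisation moved no change by more than 0.06 and 0.17. When a gene's probe sets were averaged, 3 of the 9 genes were 2-fold apart in the ad libitum animal in place of 5, since PTCH1 and BOC came under it. The 3 left were IHH (1.75), HHIP (1.86) and GLI1 (1.57). With the brightest probe sets at 3-fold also 3 were apart in this animal, but they were IHH, HHIP and PTCH1. There GLI1 (2.97-fold) and BOC (2.23-fold) fell short. At 1.5-fold, 3 of the 9 were apart in the calorie restriction animal in place of 0. Of the other pathway genes, 6 were 2-fold apart in the ad libitum animal by such averages and 7 past the level filter, in place of 11. In the calorie restriction animal 8 were apart at 1.5-fold and 0 past the level filter, in place of 1. For the difference between animals the count of hedgehog probe sets called by limma was 0 in the main setting and 0 to 6 with each sample left out, the 6 without the ad libitum sample 1. With sample number as a replicate block it was 0 of 23 and 2 of all 54613. The same-numbered samples' deviations had a correlation of -0.12 over probe sets, and with the numbers crossed, an alternative added after seeing the data, 1 was called (BOC) and 35 in all. Leaving out a sample gives no change within its animal, so no such value exists.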
